A study of Mus musculus with 8 samples.

Results

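The genes described here are 34 listed genes of the synaptic vesicle, its fusion machinery, the active zone, synaptic adhesion and the postsynaptic scaffold, out of 22056 genes in the deposited tables. They were found by symbol, and each of the 34 symbols matched 1 row. They were read in tumour cells grown in mice from N2N1G, a murine line of a neuroendocrine cancer, small cell lung cancer. The libraries came from 2 brain allografts and 3 subcutaneous allografts started by direct injection, and from 3 liver allografts started through the tail vein, so route and site cannot be told apart in comparisons with liver. Each allograft began with 1000000 cells and was taken after 3 weeks, then dissociated, sorted for living cells and profiled by droplet sequencing of transcript 3′ ends. All groups share the 1 cell line, and the labels give no genotype, strain or age of the host mice. From its title the study is about neuronal mimicry of the tumour in brain, and the question here is how these genes differed between sites.

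Neurons release transmitter when vesicles, held near the membrane by synapsins and Rab3 proteins, dock at the active zone and fuse through SNARE proteins under control of the calcium sensors called synaptotagmins. Neurexins on the sending side and neuroligins on the receiving side hold the synapse together, and Dlg, Shank and Homer proteins form the scaffold beneath the receiving membrane. Neuroendocrine cells use much of the same release machinery for their dense-core granules, and synaptophysin is used in pathology as a marker of neuroendocrine tumours. The repressor REST, which binds DNA elements called RE1, keeps many of these genes off in cells that are not neurons. E-boxes are short elements bound by transcription factors of the basic helix-loop-helix family.

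Sequence before the transcription start is shown for 3 of the genes that were higher in brain than in liver, because each passed in that contrast and the windows can be searched for RE1 and E-box letters. RefSeq promoter entries on GRCm38.p6, which has the coordinates of the mm10 build of the counts, were matched by symbol for 25 of the 34 genes, and the 250 bases before the start were read. Capitals mark a match on either strand to TTCAGCACC, the left part of the RE1 consensus, or to CAGCTG, an E-box. The Stx1a window is chr5:135023232-135023481 on the plus strand, with CAGCTG starting 33 bases before the start. The Nlgn1 window is chr3:26153987-26154236 on the minus strand, before a start inside the gene, with the RE1 part starting 153 bases before it. Another Nlgn1 window, chr3:26331910-26332159 near the 5′ end of the gene, held neither motif and is not printed. The Unc13a window is chr8:71671758-71672007 on the minus strand and holds neither.
Stx1a: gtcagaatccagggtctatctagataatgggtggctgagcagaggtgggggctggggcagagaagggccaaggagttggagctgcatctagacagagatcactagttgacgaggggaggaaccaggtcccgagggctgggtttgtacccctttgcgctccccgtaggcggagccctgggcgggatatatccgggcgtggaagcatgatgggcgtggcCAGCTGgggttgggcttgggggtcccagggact
Nlgn1: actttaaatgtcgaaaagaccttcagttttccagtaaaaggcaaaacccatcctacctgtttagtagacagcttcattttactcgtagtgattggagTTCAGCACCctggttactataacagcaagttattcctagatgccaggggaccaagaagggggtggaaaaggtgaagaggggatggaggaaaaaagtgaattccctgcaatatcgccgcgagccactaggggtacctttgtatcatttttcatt
Unc13a: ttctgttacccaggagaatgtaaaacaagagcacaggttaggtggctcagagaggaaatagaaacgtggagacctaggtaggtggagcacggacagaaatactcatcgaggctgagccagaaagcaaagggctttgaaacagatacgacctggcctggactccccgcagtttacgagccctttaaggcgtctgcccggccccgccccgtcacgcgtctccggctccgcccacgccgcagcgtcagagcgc
Of all 32851 promoter windows of this length, 0.301% held TTCAGCACC and 13.0% held CAGCTG, and the motifs do not overlap each other. The 25 genes with an entry had 39 windows. Of these windows 2 held the first, in Nlgn1 and Syn1, and 8 the second, in Cplx1, Cplx2, Homer1, Nlgn2, Rab3a, Stx1a, Sv2a and Syt1. A match is a description of the letters only.

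A tumour cell was a cell with at least 500 detected genes, at most 10% mitochondrial unique molecular identifiers (UMIs, the counted molecules), and at least 0.2% of its UMIs from eGFP and Mycl together. By this rule 34719 of 36797 kept cells were tumour cells, with 2418 and 4060 in the brain libraries, 4114 to 4720 in liver and 4150 to 6276 in subcutaneous libraries. The libraries held 27140735 to 63049542 UMIs, and tumour cells had median depths of 7972 to 10542 UMIs. Tumour cells lay close to the rule's limit, between 0.2% and 0.3%, in 49 to 165 cases per library. The neuroendocrine markers Chga, Insm1 and Ncam1 had UMIs in all 8 libraries, with Chga at 383 to 669 CPM (UMIs of the gene per 1000000 UMIs of tumour cells). Pairs of libraries shared 20 to 56 cell barcodes, at most 1.16% of the smaller library. Subcutaneous replicate 1 stood apart from the other subcutaneous libraries over all tested genes. The chi-square between libraries averaged 87.6 and 72.5 per gene for it against these, and 6.07 between these, where 1 is sampling noise. Among the 34 genes it was above both in 18, and at least 1.5-fold above their mean in 7. Such counts were not made over all genes, so they are not read as particular to the list. Cells with a UMI of En1, a homeobox transcription factor, made up 7.11% of the tumour cells of subcutaneous replicate 1. They made up 1.13% and 1.26% in the other subcutaneous libraries, 0.805% to 1.36% in liver and 20.8% and 23.5% in brain.

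Host RNA was also present in the tumour cells of brain libraries. The list of 12 microglia and macrophage markers summed to 518 and 115 CPM in brain, 30.1 to 41.7 in liver and 40.2 to 67.8 in subcutaneous tumour cells. The list of 12 neuron markers summed to 39.7 and 30.0 CPM in brain, 16 to 19.5 in liver and 15.7 to 29.7 in subcutaneous tumour cells. Slc17a6, a glutamate transporter that marks neurons, was at 0 in liver and subcutaneous libraries and at 0.184 and 0.0258 CPM in brain. Cells below the tumour rule with at least 5 UMIs of C1qa, C1qb and C1qc, here called C1q cells, numbered 640 and 172 in the brain libraries. In them the neuron list was at 10.2 and 6.91 CPM. The list of 11 tumour markers was at 370 and 366 CPM in them and at 11725 and 10967 in tumour cells. This list holds eGFP and Mycl, whose UMIs set both groups, so part of the difference was fixed by the rule. In brain tumour cells Mycl was at 5163 and 4158 CPM and eGFP at 3360 and 3503. C1q cells are set beside tumour cells for comparison. Their values can hold RNA of their own as well as free RNA, and the source was not tested. Tumour cells with a UMI of any of 9 host markers (C1qa, C1qb, C1qc, Tyrobp, P2ry12, Gfap, Mog, Cldn5 and Nrgn) were 67.5% and 25% of tumour cells in brain and 0.605% to 5.01% elsewhere, and the calls of the 34 genes were repeated without them.

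In brain tumours, a subset of the synaptic genes was higher than in liver tumours, led by Stx1a, Nrxn3, Shank2, Nlgn3, Nlgn1, Sv2a and Shank1 at 2.81-fold to 25.9-fold, while most of the core vesicle genes differed little. UMIs of tumour cells were summed per library and sites compared with the edgeR quasi-likelihood test over all 13931 genes that passed a filter on low counts, and a gene passed where its p, adjusted after Benjamini and Hochberg, was under 0.05. All 34 genes passed the filter, and every one had UMIs in all 8 libraries. Against liver, 10 were higher in brain, 2 were lower and 22 did not pass, so 35.3% of the list were called, where 21.8% of all tested genes were (13.2% higher and 8.56% lower). Against subcutaneous tumours, 4 were higher, 0 were lower and 30 did not pass, which is 11.8% of the list against 15.1% of all tested genes (8.94% higher and 6.13% lower). These contrasts share the brain libraries. Between liver and subcutaneous tumours 0 of 34 passed by edgeR, where 2.83% of all genes did (0.933% higher and 1.90% lower in liver). By edgeR 11 were at an unadjusted p under 0.05, as were 18% of all tested genes, and DESeq2 called 6, beside 7.58% of all.

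The median log2 fold change of the list was 0.06 against liver and 0.15 against subcutaneous tumours, beside 0.00 for all tested genes in both, and -0.05 for liver against subcutaneous beside -0.01. Libraries of the sites compared did not overlap for 17 of 34 genes in brain against liver (53.2% of all tested genes), 16 in brain against subcutaneous (46.8%) and 12 in liver against subcutaneous (27.7%). With library totals in place of TMM factors, the median of all genes shifted by 0.11 in brain against liver and -0.11 in liver against subcutaneous. The share of calls that were higher moved with it, from 60.7% to 76.5% in brain against liver and from 33.0% to 15.7% in liver against subcutaneous. The direction of every listed gene past the threshold was the same under that scaling and under DESeq2.

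**Figure D1:**
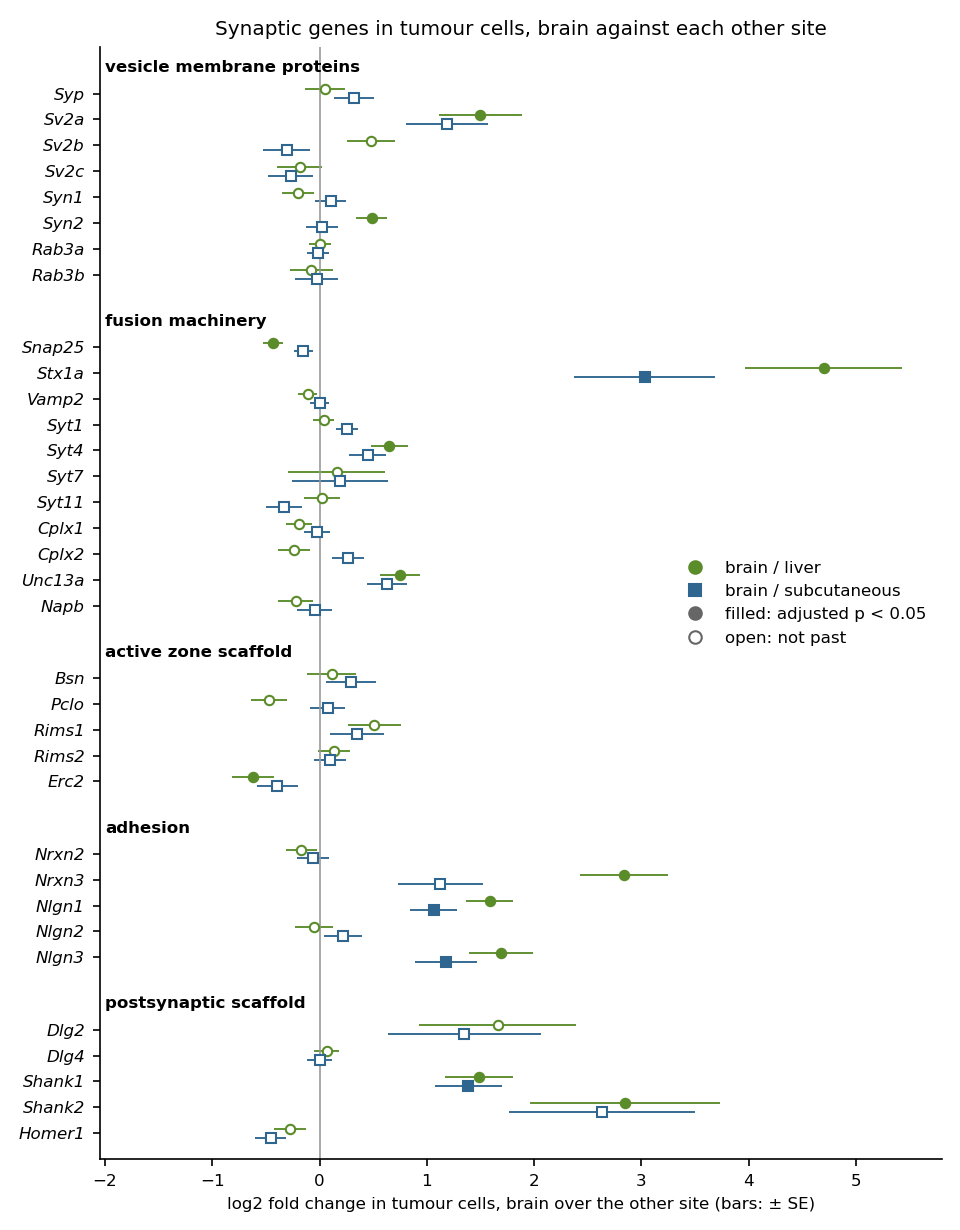
Log2 fold change of each of the 34 genes in tumour cells, brain over liver (circles) and brain over subcutaneous (squares), with the standard error as a bar, grouped by role; filled symbols passed an adjusted p under 0.05. Filled symbols lie to the right for 10 genes against liver and 4 against subcutaneous tumours, and to the left only for Snap25 and Erc2 against liver.

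Of the 8 genes for proteins of the vesicle membrane or bound to it, 2 were higher in brain than in liver, and 0 passed against subcutaneous tumours. Sv2a, a glycoprotein of vesicles and the binding site of the drug levetiracetam, stood at 10.5 and 12.1 CPM in the brain libraries, 3.93, 3.16 and 4.04 in liver and 8.54, 3.16 and 3.28 in subcutaneous replicates 1 to 3. Both brain libraries were above all others, and subcutaneous replicate 1 was closest to them. Its log2 fold change was 1.5 against liver (SE 0.385, adjusted p = 0.0246) and 1.19 against subcutaneous tumours (SE 0.383, adjusted p = 0.067). Without subcutaneous replicate 1 the second value was 1.82 (SE 0.169, edgeR adjusted p = 4.89e-05). Without any 1 of the brain or liver libraries, or without cells with an En1 UMI, the first was no longer past the threshold. In the C1q cells Sv2a was at 7.63 CPM in brain replicate 1, near the level of its tumour cells, and at 1.73 CPM (1 UMI) in replicate 2.

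Syn2, a synapsin that tethers vesicles, was at 19.6 and 22.6 CPM in brain, 12.1, 13.4 and 16.4 in liver and 21.8, 22.0 and 18.6 in subcutaneous libraries. The liver libraries were below all others, and brain and subcutaneous libraries overlapped. Its log2 fold change was 0.48 for brain against liver (SE 0.146, adjusted p = 0.0436), and in 13 of 25 alternatives it did not pass. Synaptophysin (Syp) was at 20.4 and 20.0 CPM in brain, 17.9, 20.8 and 15.2 in liver and 20.0, 14 and 14.6 in subcutaneous libraries, with log2 fold changes of 0.05 and 0.32 that did not pass. Rab3a, a GTPase that binds vesicles before fusion, was at 55.0 to 69.4 CPM over all 8 libraries. Its log2 fold changes were 0.00 against liver (95% interval -0.27 to 0.28) and -0.01 against subcutaneous tumours (-0.29 to 0.26), intervals taken from the SE and 5 residual degrees of freedom. Its close relative Rab3b was at 23.8 to 38.7 CPM, and Syn1, Sv2b and Sv2c were at 12.2 to 17.2, 1.17 to 2.37 and 3.80 to 5.78 CPM, with no contrast past the threshold.

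Among the 11 genes of membrane fusion, Stx1a had the largest fold change of all 34 genes in both brain contrasts. Stx1a encodes syntaxin 1A, the SNARE of the plasma membrane (ENSMUSG00000007207, chromosome 5, 135023482 to 135051100 in GENCODE M21, protein-coding), and its upstream sequence is printed above. It stood at 3.73 and 4.99 CPM in brain, 0.142, 0.146 and 0.173 in liver and 1.22, 0.193 and 0.231 in subcutaneous libraries. These rest on 81 and 193 UMIs in brain, 7, 7 and 8 in liver and 51, 12 and 12 in subcutaneous libraries. Both brain libraries were above all others, and subcutaneous replicate 1 was above the other 5. The log2 fold change was 4.70 against liver (SE 0.729, adjusted p = 0.00354), a 25.9-fold difference, and 3.03 against subcutaneous tumours (SE 0.656, adjusted p = 0.0191), 8.17-fold. Without subcutaneous replicate 1 the latter was 4.36 (SE 0.307, edgeR adjusted p = 9.29e-06). It lost the threshold against subcutaneous tumours without brain replicate 1, without brain replicate 2, without subcutaneous replicate 3 and in a fit of only these 2 sites. In C1q cells of the brain libraries it had 2 and 0 UMIs.

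Syt4, a synaptotagmin of vesicles and granules, was at 28.4 and 33.1 CPM in brain, 20.4, 18 and 15.9 in liver and 27.3, 20.2 and 20.2 in subcutaneous libraries. Unc13a, which primes docked vesicles for fusion, was at 21.7 and 22.3 CPM in brain, 14, 11.8 and 10.4 in liver and 17.7, 12.1 and 12.8 in subcutaneous libraries. In both genes the brain libraries were above all others and subcutaneous replicate 1 came next. Against liver the log2 fold change was 0.65 for Syt4 (SE 0.172, adjusted p = 0.0268) and 0.75 for Unc13a (SE 0.189, adjusted p = 0.0226). Each lost the threshold without cells with an En1 UMI and without brain replicate 1, brain replicate 2, liver replicate 2 or liver replicate 3. Against subcutaneous tumours the values were 0.45 (adjusted p = 0.108) and 0.63 (adjusted p = 0.0536). Without subcutaneous replicate 1 they were 0.61 (edgeR adjusted p = 0.0094) and 0.82 (adjusted p = 0.00301). Unc13a overlaps Colgalt1 on the opposite strand, and its UMIs are uncertain to the extent that counting ignored strand. Of the 34 genes, 8 overlap another counted gene. Syn2, Syt1 and Sv2c overlap a gene on the same strand (Gm17482, Gm5136 and Gm20075), so their UMIs are uncertain where the genes overlap. Syn2 also overlaps Timp4 on the opposite strand.

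Snap25, a SNARE partner of syntaxin, went the other way. It was at 141 and 144 CPM in brain, 186, 161 and 187 in liver and 158, 157 and 159 in subcutaneous libraries, with both brain libraries below all others. Its level fell by 0.43 on the log2 scale in brain against liver (SE 0.0902, adjusted p = 0.011), a call lost without brain replicate 1 and without brain replicate 2. The difference of -0.15 from subcutaneous tumours did not pass (adjusted p = 0.289).

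The remaining 7 fusion genes passed in no contrast. Vamp2, the SNARE of the vesicle itself, was at 72.9 to 81.5 CPM over all libraries, with log2 fold changes of -0.11 (95% interval -0.34 to 0.12) and 0.00 (-0.22 to 0.23) for brain against liver and subcutaneous tumours. Syt1, the fast calcium sensor, was at 53.7 and 45.7 CPM in brain and 40.6 to 47.5 elsewhere. The complexins, which bind the assembled SNAREs, were at 29.4 to 39.0 CPM for Cplx1 and 202 to 325 for Cplx2. Cplx2 was at 325, 299 and 292 CPM in liver and 275, 202 and 222 in subcutaneous libraries, with no overlap, and its log2 fold change of 0.50 did not pass (adjusted p = 0.0872); without subcutaneous replicate 1 it was 0.64 (edgeR adjusted p = 0.0122). Napb, which helps take SNARE complexes apart, was at 11.9 to 16.1 CPM. Syt11 was at 184 and 183 CPM in subcutaneous replicates 2 and 3 and at 103 to 145 in the other 6 libraries. Syt7, a slow calcium sensor, was at 44.9 CPM in subcutaneous replicate 1 and 16.5 and 17.2 in the other subcutaneous libraries, a spread larger than any difference between sites.

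Of the 5 genes of the active zone scaffold, 1 passed, lower in brain than in liver. Erc2, which binds Rims and Bassoon, was at 4.24 and 3.26 CPM in brain, 5.75, 5.02 and 5.07 in liver and 4.15, 5.45 and 5.05 in subcutaneous libraries. Its level fell by 0.62 on the log2 scale in brain against liver (SE 0.194, adjusted p = 0.0494), and in 14 of 24 alternatives it did not pass. Bassoon (Bsn) and Piccolo (Pclo), the giant scaffolds of this zone, were at 4.51 to 7.37 and 6.64 to 11.4 CPM. Pclo was at 7.61 and 7.60 CPM in brain and 11.4, 9.18 and 8.55 in liver, a log2 fold change of -0.47 that did not pass (adjusted p = 0.0719). Rims1 and Rims2, which dock vesicles, were at 1.34 to 2.90 and 22.4 to 31.2 CPM and passed in no contrast.

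**Figure D2:**
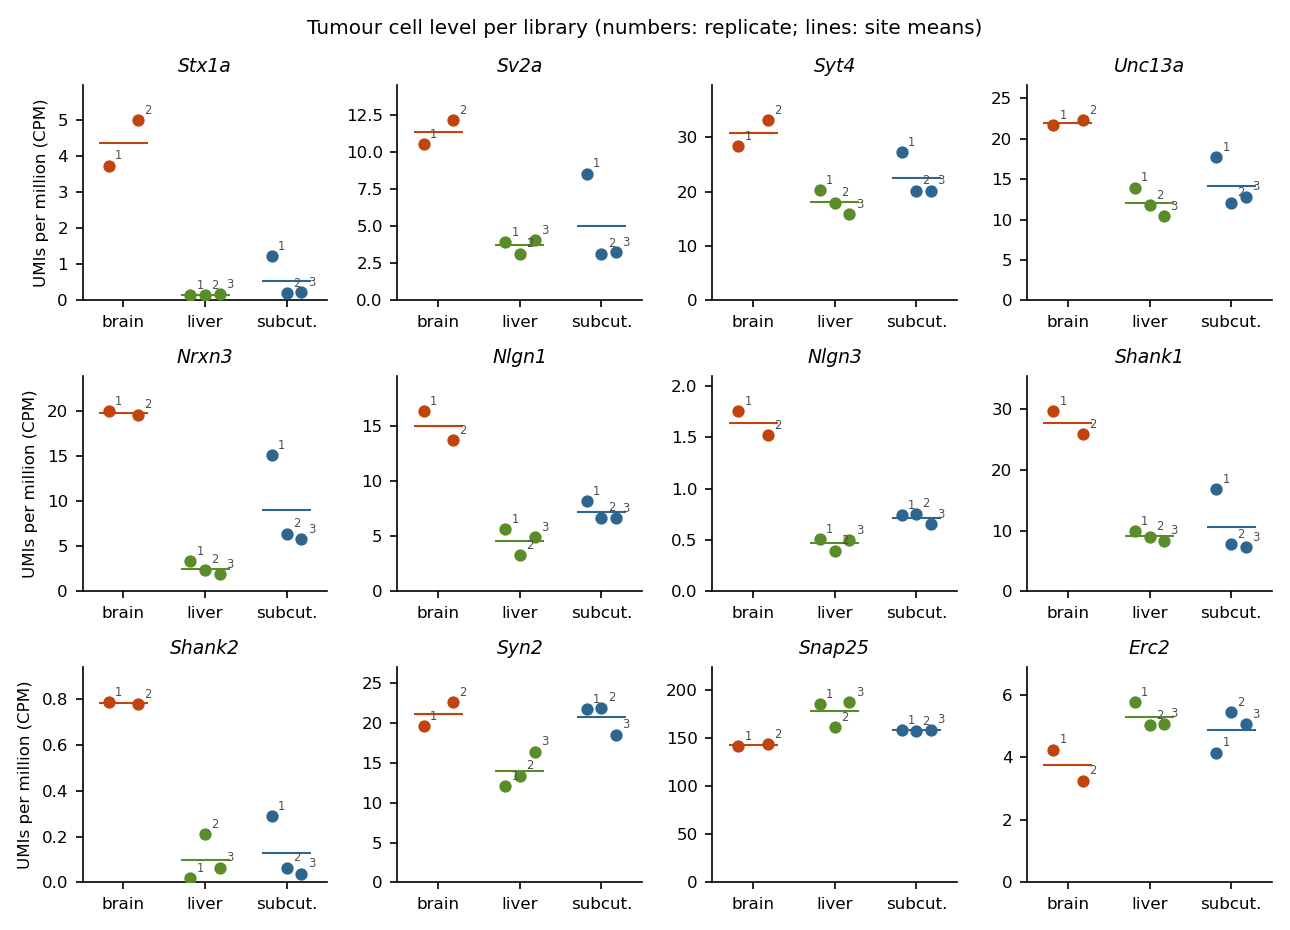
Level of the 12 genes past the threshold in brain against liver, as CPM in tumour cells of each library, with replicate numbers beside the points and site means as lines. Both brain libraries lie above all liver libraries in 10 panels and below them for Snap25 and Erc2. Of the 10 panels, subcutaneous replicate 1 lies nearest to brain for Stx1a, Sv2a, Syt4, Unc13a, Nrxn3, Nlgn1, Shank1 and Shank2, but not for Nlgn3 and Syn2.

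Adhesion genes split by member: Nrxn3, Nlgn1 and Nlgn3 were higher in brain than in liver, and Nrxn2 and Nlgn2 did not pass in any contrast. Nrxn3, a neurexin (ENSMUSG00000066392, chromosome 12, 88722876 to 90334935, protein-coding), was at 20.0 and 19.6 CPM in brain, 3.32, 2.40 and 1.90 in liver and 15.1, 6.4 and 5.78 in subcutaneous libraries. The sites did not overlap in any pair, with liver lowest and brain highest. Its log2 fold change was 2.84 against liver (SE 0.412, adjusted p = 0.00307), a 7.15-fold difference that passed in all 25 alternatives. Against subcutaneous tumours it was 1.13 (SE 0.394, adjusted p = 0.0881), and for liver against subcutaneous -1.71 (SE 0.379, adjusted p = 0.0522). Without subcutaneous replicate 1 these were 1.70 (edgeR adjusted p = 0.000353) and -1.14 (adjusted p = 0.0124). Nrxn2, a neurexin of another gene, was at 36.4 to 47.2 CPM over all libraries.

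Nlgn1, the neuroligin of excitatory synapses (ENSMUSG00000063887, chromosome 3, 25426215 to 26332460, protein-coding; a window before an internal start is printed above), was at 16.3 and 13.7 CPM in brain, 5.65, 3.26 and 4.94 in liver and 8.18, 6.70 and 6.63 in subcutaneous libraries. Brain was above subcutaneous and subcutaneous above liver with no overlap. The log2 fold change was 1.59 against liver (SE 0.219, adjusted p = 0.0023), past the threshold in all 25 alternatives, and 1.06 against subcutaneous tumours (SE 0.217, adjusted p = 0.0155). The second call was lost without brain replicate 1, without brain replicate 2 and without subcutaneous replicate 3. Nlgn3, at excitatory and inhibitory synapses, was at 1.75 and 1.52 CPM in brain, 0.506, 0.397 and 0.496 in liver and 0.743, 0.757 and 0.655 in subcutaneous libraries, on 19 to 59 UMIs per library. The order of the sites was the same as for Nlgn1, again with no overlap. For Nlgn3 the log2 fold changes were 1.69 against liver (SE 0.297, adjusted p = 0.00577) and 1.18 against subcutaneous tumours (SE 0.292, adjusted p = 0.029), and the second did not pass in 11 of 24 alternatives. The first did not pass in cells with fewer than 2 UMIs over 20 genes of the G2/M phase. Nlgn2, the neuroligin of inhibitory synapses, was at 22.9 and 15.3 CPM in brain and 15.5 to 20.6 elsewhere, so the brain libraries alone spanned the range of the others.

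Of the 5 postsynaptic scaffold genes, both Shank genes were higher in brain than in liver. Shank1, a scaffold of excitatory synapses, was at 29.6 and 25.9 CPM in brain, 9.96, 9.03 and 8.37 in liver and 16.8, 7.77 and 7.34 in subcutaneous libraries. Brain was above all others, and subcutaneous replicate 1 was above the other 5. The log2 fold change was 1.49 against liver (SE 0.314, adjusted p = 0.0115) and 1.39 against subcutaneous tumours (SE 0.314, adjusted p = 0.0218), or 2.81-fold and 2.61-fold. Without subcutaneous replicate 1 the second was 1.87 (SE 0.143, edgeR adjusted p = 1.63e-05). The first was lost without brain replicate 1, and the second without either brain library, without subcutaneous replicate 2 or 3, and in a fit of only these 2 sites. Shank1 overlaps 1700008O03Rik on the opposite strand, with the same limit as for Unc13a.

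Shank2 was rare, at 0.784 and 0.775 CPM in brain (17 and 30 UMIs), 0.0202, 0.209 and 0.0648 in liver (1, 10 and 3 UMIs) and 0.288, 0.0645 and 0.0385 in subcutaneous libraries (12, 4 and 2 UMIs). Its log2 fold change of 2.84 against liver had an SE of 0.886 (adjusted p = 0.0485), and in 9 of 22 alternatives it did not pass. Against subcutaneous tumours it was 2.63 (adjusted p = 0.072), and 3.82 without subcutaneous replicate 1 (edgeR adjusted p = 0.00372). Dlg2 was at 0.0484 to 0.645 CPM on 3 to 14 UMIs per library, and its log2 fold changes of 1.66 and 1.35 did not pass. Dlg4, a main scaffold of the postsynaptic density, was at 21.2 to 27.5 CPM, with log2 fold changes of 0.07 (95% interval -0.24 to 0.37) against liver and 0.00 (-0.30 to 0.30) against subcutaneous tumours. Homer1, which links Shank proteins to glutamate receptors, was at 7.93 and 6.77 CPM in brain and 9.98, 10.2 and 9.90 in subcutaneous libraries, a log2 fold change of -0.46 that did not pass (adjusted p = 0.0673); it was -0.46 with an edgeR adjusted p of 0.0459 without subcutaneous replicate 1. Sequencing of 3′ ends does not separate the short and long Homer1 forms with certainty, and none of these values is by isoform.

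Leaving out subcutaneous replicate 1 gave the highest counts in brain against subcutaneous tumours among the alternatives. Without it, 14 of the 34 genes passed in brain against subcutaneous tumours, 12 higher and 2 lower (Syt11 and Homer1), and all 4 genes of the full fit were among them. The share of all tested genes that passed also rose, from 15.1% to 34.3%. Brain against liver then gave 13 genes, against 32.9% of all genes, and liver against subcutaneous gave 4 (Sv2b, Syt11, Cplx2 and Nrxn3), against 7.39% of all genes. Without brain replicate 1, 4 genes passed against liver (7.84% of all tested genes) and 0 against subcutaneous tumours (2.70%). Without brain replicate 2, 5 passed against liver (8.85%) and 0 against subcutaneous tumours (4.13%). Without the tumour cells that held a UMI of the 9 host markers, 13 genes passed in brain against liver (21.1% of all tested genes), with all 12 of the full fit among them, and 4 (14.9%) in brain against subcutaneous tumours. The latter were Stx1a, Nlgn1, Shank1 and, lower, Homer1.

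The share of cells with a UMI broadly followed the levels, but not in every library. For Nrxn3, subcutaneous replicate 1 was below both brain libraries in CPM and above both in share, at 3.91% against 3.54% and 3.89%. Tumour cells were reduced at random to 2000 UMIs each. Between 24 and 75 cells per library were too shallow for this, and 2371 to 6201 remained. Single cells then showed a mean of 2.05 of the 34 genes in both brain libraries, 1.80 to 1.98 in liver and 1.90 to 1.98 in subcutaneous libraries. Thinned in the same way, 493 and 122 C1q cells of the brain libraries showed a mean of 0.274 and 0.254. Their median depths before thinning were 3692 and 2745 UMIs, against 7972 and 8409 in the tumour cells. No UMI of any of the 34 genes was found in 11.3% to 14.5% of thinned tumour cells per library.

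Stx1a had a UMI in 0.717% and 1.21% of thinned brain tumour cells, 0.0214% to 0.0491% in liver and 0.244%, 0% and 0.0841% in subcutaneous replicates 1 to 3, with 0.203% and 0% in the C1q cells. With 3 counts as the limit that a count of 0 allows, these 0 shares allow up to 0.0484% in the 6201 cells of subcutaneous replicate 2 and 2.46% in the 122 C1q cells of brain replicate 2, for counting error only. Before thinning the brain values were 3.23% and 4.33%. Nrxn3 had one in 3.54% and 3.89% of thinned brain tumour cells, 0.429% to 0.589% in liver and 3.91%, 1.52% and 1.37% in subcutaneous libraries, and in 0 of the 493 and 122 C1q cells, which allows up to 0.609% and 2.46%. Shank1 stood at 5.74% and 5.40% in brain, 1.44% to 1.99% in liver and 2.88%, 1.53% and 1.83% in subcutaneous libraries, with 0.406% and 0% in the C1q cells. Snap25, the reverse case, was in 24.6% and 24.8% in brain, 26.1% to 31.8% in liver and 26.1% to 28.6% in subcutaneous libraries, with 1.42% and 0.82% in the C1q cells. The share for Sv2a was 2.02% in tumour cells and 1.83% in C1q cells of brain replicate 1, and 3.32% and 0% in replicate 2. Homer1 was at or below the C1q share in brain replicate 2 (1.16% against 1.64%) and Dlg2 in replicate 1 (0.0844% against 0.203%). The C1q shares rest on 2 of 122 and 1 of 493 cells, and no expression is read from these values. Vamp2, at 13.3% and 15% of brain tumour cells, was also in 6.69% and 7.38% of the C1q cells.

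**Figure D3:**
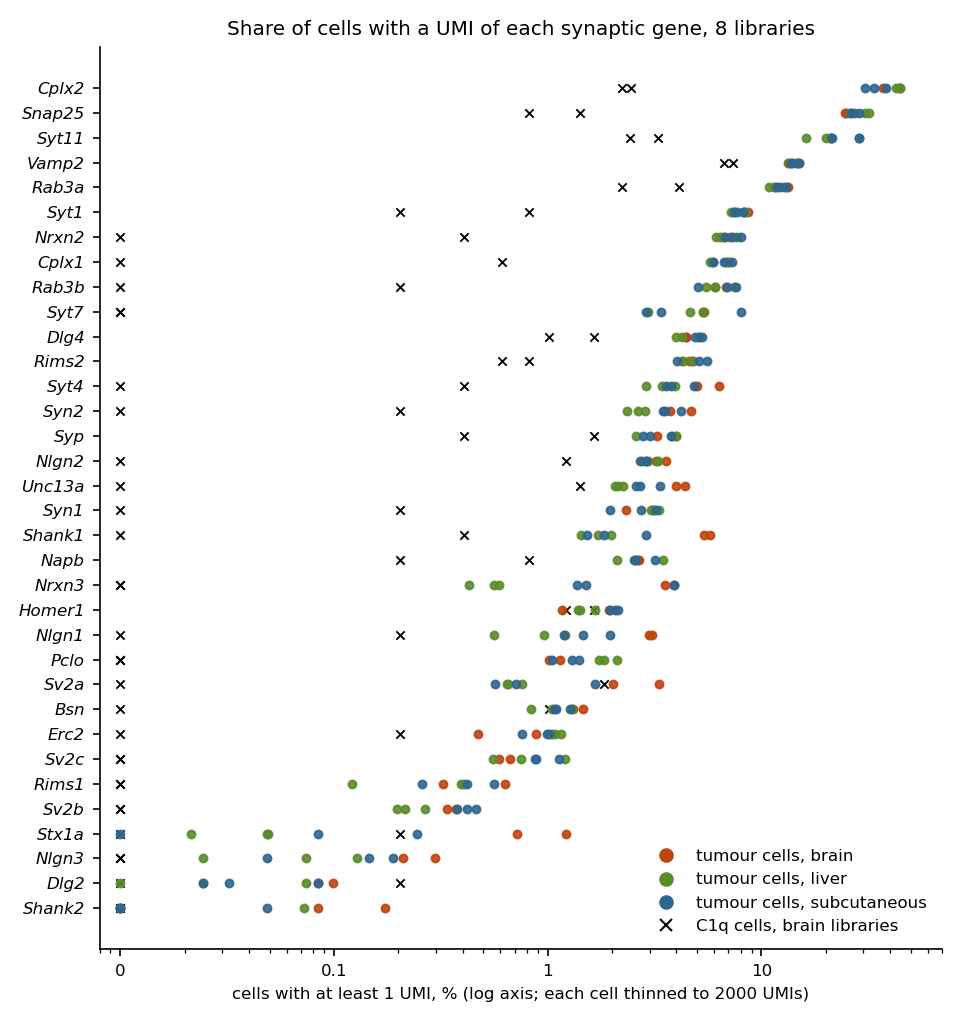
Share of cells with at least 1 UMI of each of the 34 genes on a log axis with 0 drawn at the left edge, each cell thinned to 2000 UMIs, with 1 point per library for tumour cells and crosses for C1q cells of the brain libraries. Crosses lie left of all tumour points for most genes, but at least 1 lies among them for Sv2a, Homer1, Bsn and Stx1a, 1 lies right of all of them for Dlg2, and both are at 0 for Shank2, and the brain points are set apart to the right for Stx1a, Shank1 and Nlgn1.

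Tumour cells with an En1 UMI were more frequent in brain and in subcutaneous replicate 1. In each of the 8 libraries, 8 of the 34 genes (23.5%) were higher in these cells than in the other tumour cells, beside 10.5% of all tested genes: Sv2a, Stx1a, Syt4, Syt7, Nrxn2, Nrxn3, Nlgn3 and Shank1. Snap25 and Sv2b (5.88% of the list) were lower in all 8, beside 10.5% of all tested genes. Of the 30 listed genes at 1 CPM or more in every library, 6 (20%) were higher and 2 (6.67%) lower. The shares of such tested genes were 11.6% and 11.7%. Over all cells with an En1 UMI, Sv2b had only 8 UMIs, with a lowest level of 0, and Nlgn3 had 68. Of the 8 genes higher in cells with an En1 UMI, Syt7 and Nrxn2 passed in no contrast between sites. Of the other genes higher in brain than in liver, Shank2 was higher in cells with an En1 UMI in 7 of 8 libraries, Nlgn1 and Unc13a in 6 and Syn2 in 2. Nrxn3 was at 29.4 to 107 CPM in cells with an En1 UMI and 1.52 to 16.4 in the rest, and Shank1 was at 20.4 to 44.1 and 7.08 to 25.9 CPM. Stx1a was at 4.71 to 12.9 CPM with an En1 UMI, resting on only 3 UMIs in each liver library, and 0.0819 to 3.15 without. Snap25 was at 90.2 to 179 CPM with and 147 to 187 without an En1 UMI. A cell without an En1 UMI may still express En1, and these are descriptions of cells, with no test.

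Without the cells that held an En1 UMI, 8 of the 34 genes passed in brain against liver, beside 13.5% of all tested genes, and 4 in brain against subcutaneous tumours, beside 9.61%. Stx1a kept a log2 fold change of 4.59 against liver (edgeR adjusted p = 0.00169) and 3.68 against subcutaneous tumours (adjusted p = 0.0046). Nrxn3 was at 2.94 against liver (edgeR adjusted p = 0.00326), Nlgn1 at 1.44 and 0.92 (adjusted p = 0.00462 and 0.0308), Nlgn3 at 1.29 against liver (adjusted p = 0.0353) and Shank1 at 1.34 and 1.3 (adjusted p = 0.017 and 0.0255). Sv2a, Syt4, Unc13a, Shank2 and Erc2 no longer passed against liver, nor Nlgn3 against subcutaneous tumours. Sv2b, at 0.79 against liver (edgeR adjusted p = 0.0449), and Syt1, at 0.39 against subcutaneous tumours (adjusted p = 0.0421), passed in this set of cells and not in the full set.

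**Figure D4:**
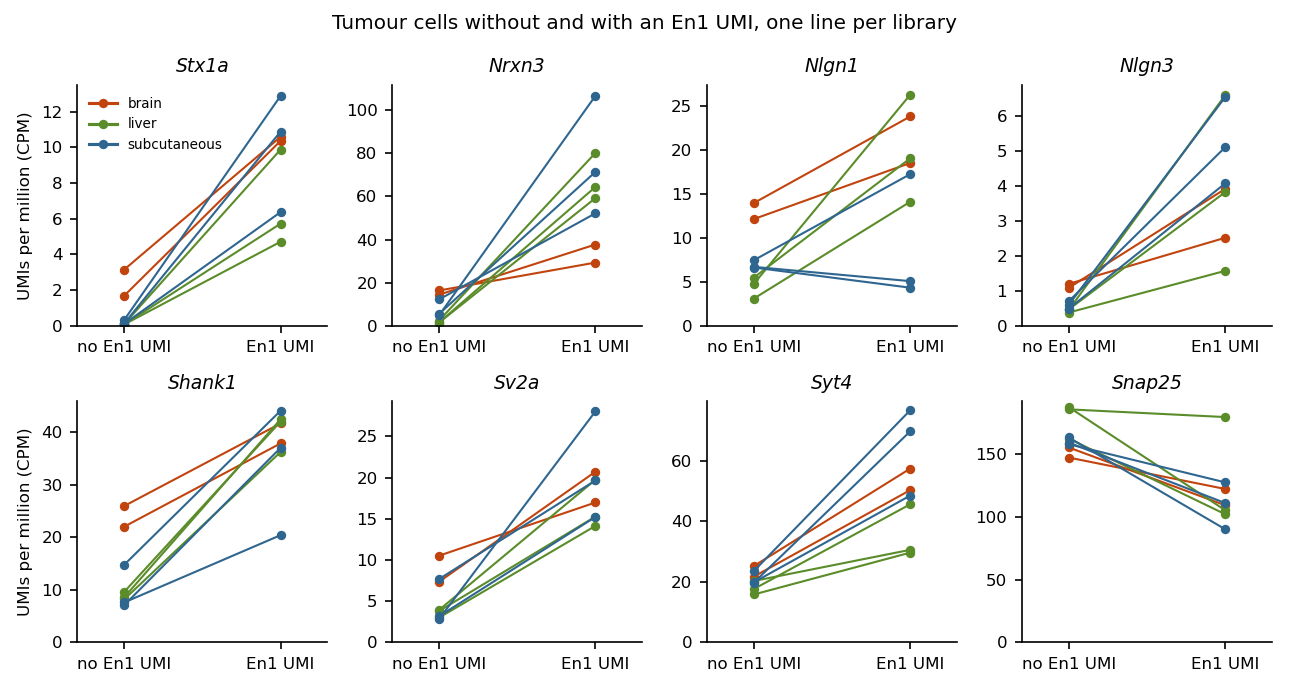
Level of 8 genes, as CPM, in tumour cells without and with an En1 UMI, with 1 line per library coloured by site. Lines rise in all 8 libraries for Stx1a, Nrxn3, Nlgn3, Shank1, Sv2a and Syt4, fall in all 8 for Snap25, and go both ways for Nlgn1.

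A further list of 121 synaptic genes in the same roles put these values in context. Of its 104 tested genes, 14 were higher and 12 lower in brain than in liver (25%), and 7 were higher and 5 lower than in subcutaneous tumours (11.5%), near the shares of all genes given above. Among its genes past the threshold as higher in brain against both sites, ranked by the lesser change, the largest increases were in Unc13c, Rph3a and Slc18a3. For this list, levels in C1q cells and calls without the cells with host markers are not given. Host RNA as a source of these UMIs was not tested. Slc18a3, the vesicular transporter of acetylcholine, was at 6.13 and 5.17 CPM in brain, 0.142, 0.146 and 0.0648 in liver and 0.839, 0.210 and 0.212 in subcutaneous libraries. Its log2 fold changes were 5.43 (SE 0.627, adjusted p = 0.00122) and 3.78 (SE 0.558, adjusted p = 0.00482). Slc18a3 overlaps Chat on the same strand, so its UMIs are uncertain where the genes overlap. Rph3a, which binds Rab3 on vesicles, was at 1.89 and 1.19 CPM in brain and 0.0405 to 0.145 elsewhere, with log2 fold changes of 4.99 (SE 0.537, adjusted p = 0.000947) and 3.78 (SE 0.48, adjusted p = 0.00264). Unc13c, a relative of Unc13a, had 22 and 29 UMIs in brain, 0 in all liver libraries and 0, 1 and 1 in subcutaneous libraries, at least 42.2-fold higher in brain than liver with 3 counts over the liver libraries as the floor (edgeR adjusted p = 0.00251).

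By the same ranking, among genes of this list past the threshold as lower in brain against both sites, Lrfn5, Flrt1 and Amph had the largest decreases. Lrfn5, an adhesion protein, was at 0.0922 and 0.155 CPM in brain (2 and 6 UMIs), 1.3, 1.82 and 1.34 in liver and 0.288, 1.21 and 0.944 in subcutaneous libraries, with log2 fold changes of -3.60 (adjusted p = 0.00751) and -2.64 (adjusted p = 0.0323). Flrt1, also an adhesion protein, and Amph, amphiphysin of vesicle retrieval, had log2 fold changes between -0.64 and -0.53 in both contrasts. Between liver and subcutaneous tumours 1 gene of this list was higher in liver and 4 were lower. Syt5 was the 1 higher (log2 fold change 0.72, SE 0.156, adjusted p = 0.0456), and Stxbp6 (-1.23, SE 0.199, adjusted p = 0.0205) and Sncb, beta-synuclein (-1.03, SE 0.155, adjusted p = 0.0164), had the largest decreases.

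Rest itself was at 0.193 to 0.738 CPM over all libraries, on 10 to 17 UMIs each, with log2 fold changes of 0.52 and 0.97 that did not pass. Rcor2, a corepressor that works with REST, was at 63.3 and 51.6 CPM in brain, 88.0, 77.7 and 94.9 in liver and 76.3, 121 and 109 in subcutaneous libraries. It was lower in brain against both sites, with log2 fold changes of -0.71 (SE 0.189, adjusted p = 0.0279) and -0.83 (SE 0.19, adjusted p = 0.0222). Srrm4, which directs neuronal splicing, was at 8.67 and 10.8 CPM in brain and 14.6 to 17.2 in subcutaneous libraries, a log2 fold change of -0.71 (SE 0.139, adjusted p = 0.0135), and its difference of -0.36 from liver did not pass (adjusted p = 0.0941).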

How the data were processed

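Per the file headers (software version 3.0.0), each library came as a matrix of UMI counts that the authors deposited, in whole numbers. Cell Ranger, STAR and build mm10 are named in the submitters' processing notes, and counting parameters are not given in the sources used here. Barcodes had been filtered before deposit, since the lowest total was 501 UMIs. Cells and tumour cells were chosen by the limits given in the report, and no doublet caller was run.

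UMI counts of tumour cells were summed per library and fitted in R 4.3.3 with edgeR 4.0.16 (TMM factors, filterByExpr, robust quasi-likelihood F tests), with a mean per site over all 8 libraries, 5 residual degrees of freedom and a biological coefficient of variation of 17.9%. Genes not tested held 0.0133% of the UMIs. The SE is the log2 fold change divided by the root of F. Between libraries of 1 site the chi-square averaged 6.07 to 87.6 over genes, where 1 is sampling noise, so none was a repeated deposit. The labels do not say which libraries came from separate mice, so the p-values measure the spread between these samples. The steps were tested on simulated data. CPM are relative to tumour cell UMIs and are not divided by length, since 3′ counting gives 1 count per molecule.

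Summed libraries held 21689091 to 62047017 UMIs. Genes and lists were chosen with earlier results of these data known. Full statistics went to members past the threshold in any contrast, and in the further list to 3 genes each way, ranked by the lesser of their changes in the brain contrasts, and to at most 2 each way between liver and subcutaneous. Alternatives used DESeq2 1.42.0, other scalings, filters and cell choices, the replicate number as a block, and each library left out.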

Additional observations from a re-analysis of the deposited data

How the results depend on the processing

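Counts given here are of the 34 genes and, where stated, of all tested genes past the adjusted threshold, set beside 12, 4 and 0 of the 34 and 3032, 2099 and 394 of all genes in brain against liver, brain against subcutaneous and liver against subcutaneous tumours. No called gene of the 34 changed direction under any alternative. In brain against liver all genes fell to 1614 with a mean of at least 5 CPM required and 1871 without cells with an En1 UMI. In brain against subcutaneous tumours all genes came to 1107 and 1328 under these, 728 in a fit of only those sites (with 1 of the 34) and 1378 with the replicate block. There DESeq2 gave 7 of the 34, beside 19.3% of all tested genes. Leaving out cells with 3 or more host marker UMIs also gave 7, beside 17.5%. In liver against subcutaneous tumours all genes came to 713 with library totals and no TMM factors (3 of the 34), 1056 with DESeq2 (6 of the 34), 233 in cells with an eGFP UMI and 229 with the replicate block. Of the 34, 2 passed there with the block (1.64% of all tested genes) and without cells with 3 or more host marker UMIs (2.88%). Also there, 1 passed with the 5 CPM filter, in cells with fewer than 2 G2/M UMIs and without cells with an En1 UMI. So did 1 without the 4% deepest cells and with counts thinned to the lowest total. Leaving out cells with a UMI of the 9 host markers, a setting chosen after seeing the data, also gave 1. Under these settings 2.34% to 3.59% of all tested genes passed. The cause of these changes was not tested.

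Leaving out 1 library at a time gave 4 (without brain replicate 1) to 13 (without subcutaneous replicate 1) of the 34 in brain against liver, 0 (without either brain library or subcutaneous replicate 3) to 14 (without subcutaneous replicate 1) in brain against subcutaneous, and 0 to 4 (without subcutaneous replicate 1) in liver against subcutaneous tumours. Over all genes the ranges were 1112 to 4557, 383 to 4754 and 33 to 1024. Where 1 brain library remained, it was assumed to vary like the other groups. With the replicate number as a block 8, 3 and 2 of the 34 passed, beside 17.8%, 9.89% and 1.64% of all tested genes, but the numbers did not pair the libraries: deviations of liver and subcutaneous libraries of the same number correlated at 0.19, -0.13 and 0.25, and liver replicate 2 was closest to subcutaneous replicate 1. Few UMIs limit Stx1a, Nlgn3, Shank2 and Dlg2 most.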

Other observations

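Other groups of tumour cells were set by a single UMI of a transcription factor and described by the same counts, with no test. In cells with a UMI of Isl1, a neuronal homeobox factor, 6 of the 34 genes were higher than in the remaining tumour cells of the same library in all 8 libraries (Syn2, Syt1, Syt11, Rims1, Rims2 and Nlgn2), and Stx1a was lower in all 8. These are 17.6% and 2.94% of the list, beside 9.95% and 2.80% of all tested genes. Stx1a had only 11 UMIs over all cells with an Isl1 UMI. Of the 30 listed genes at 1 CPM or more in every library, 6 were higher and 0 lower, beside 12.4% and 2.51% of such tested genes. Syt1 was at 50 to 83.4 CPM with and 39.2 to 49.3 without an Isl1 UMI. In cells with a UMI of Tfap2a, 7 genes were higher in all 8 libraries and 10 were lower, or 20.6% and 29.4% of the list beside 19.3% and 9.22% of all tested genes. Among these, Syt7 was at 32.8 to 56.7 CPM with and 14.1 to 36.8 without a Tfap2a UMI, and subcutaneous replicate 1, where Syt7 was highest, had 1612 such cells among 4150. Stx1a had 26 UMIs over all cells with a Tfap2a UMI. Of the 30 genes at 1 CPM or more in every library, 7 (23.3%) were higher with a Tfap2a UMI and 8 (26.7%) lower. The shares of such tested genes were 23.5% and 9.29%.

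Cells with fewer than 2 UMIs over 20 genes of the G2/M phase had higher levels of Rab3a, Rab3b, Cplx1, Cplx2, Nrxn3 and Shank1 than cycling cells in all 8 libraries, and lower levels of Sv2c and Homer1. These are 17.6% and 5.88% of the list, beside 12.6% and 13.6% of all tested genes. Nrxn3 was at 3.62 to 26.9 CPM in the first and 1.45 to 18.2 in the second. The share of such cells was 30.3% and 31.4% in brain, 24.3% to 27.2% in liver and 31.5% to 34.1% in subcutaneous libraries. Of the 30 listed genes at 1 CPM or more in every library, 6 (20%) were higher in them and 2 (6.67%) lower. The shares of such tested genes were 15% and 16.3%.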
